A study of Mus musculus with 23 samples.

Results

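Described here are 8 genes of bone morphogenetic protein (BMP) signalling and its Id targets in the proximal gut of young mice: the ligands Bmp2 and Bmp4, the receptor Bmpr1a, the inhibitory Smad6 and Smad7, and Id1, Id2 and Id3. They were named by symbol and found by Ensembl identifier among the 55416 gene rows of the count files, and all 8 were among the 13405 genes that passed the filter on low counts. The choice drew on the diet comparison itself, in which Id2 ranked 3 of 13405 by p, so the members' diet differences below are a description and carry no test. The question was whether other BMP targets follow Id2.

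RNA-seq was done on scrapings of the proximal small intestine, 1 library per mouse, and the mice, labelled female, were of strain C57BL/6JRccHsd. All mice were sorted by body weight into diet groups at 21 days of age, after weaning, ate a pelleted diet for 3 weeks and were killed at 42 days. The galactose diet (n = 12) gave 16% of energy as galactose and 16% as glucose, and the glucose diet (n = 11) gave 32% as glucose and was the same in all else. The labels name no allele, drug or surgery for either group.

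BMP ligands made largely by cells under the epithelium bind paired type I and type II receptors, which phosphorylate SMAD1, SMAD5 and SMAD9. These join SMAD4 in the nucleus and switch on targets that include the Id genes and, as a brake, Smad6 and Smad7. In the intestine the signal is known to be strong along the villus and low at the crypt base, where secreted antagonists hold it back. Id proteins lack a DNA-binding region and block basic helix-loop-helix factors by pairing with them.

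Libraries held 15382583 to 17174721 counts in genes. The enterocyte list (9 genes, among them Alpi, Sis and Fabp2) summed to between 57153 and 88899 CPM (a library-size-scaled read count) and the ileal list (Fabp6 and Slc10a2) to at most 1.63 CPM, so the scrapings carried the markers of absorptive epithelium and nearly none of the ileum. Galactose replicate 12 held 225 counts of 4 Y-linked genes, where each other library held at most 1, and this goes against its label as female. Galactose replicate 2 held 553 CPM of pancreatic acinar genes, against at most 7.17 CPM in any glucose library. A scrape mixes cell types, and in bulk RNA fewer cells of a type and less RNA per cell cannot be told apart.

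Promoter sequences from RefSeq (GRCm38.p6) were found for 5 of the 8 members. The 3 shown are those of Id2, the gene the question starts from, and of Id3 and Smad6, targets whose levels had the second highest correlation of any member pair from mouse to mouse. Each runs 5′ to 3′ on the gene's strand over 270 bases, from 250 before the annotated start to 20 after it. Capitals mark GTCT or its reverse complement AGAC, the SMAD box, and GGCGCC, a GC-rich motif known from SMAD1 and SMAD5 binding.
Id2, chr12:25096073-25096342, minus strand: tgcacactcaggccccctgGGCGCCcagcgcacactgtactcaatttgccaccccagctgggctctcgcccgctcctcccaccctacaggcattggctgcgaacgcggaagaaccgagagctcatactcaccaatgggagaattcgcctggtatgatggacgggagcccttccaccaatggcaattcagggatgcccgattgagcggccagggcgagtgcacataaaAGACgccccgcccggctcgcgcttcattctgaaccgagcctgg
Id3, chr4:136143572-136143841, plus strand: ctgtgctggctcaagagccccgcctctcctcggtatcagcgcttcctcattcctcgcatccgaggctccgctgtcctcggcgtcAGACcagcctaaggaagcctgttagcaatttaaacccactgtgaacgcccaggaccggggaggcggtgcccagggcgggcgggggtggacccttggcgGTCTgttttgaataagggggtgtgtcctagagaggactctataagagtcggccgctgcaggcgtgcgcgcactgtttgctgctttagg
Smad6, chr9:64022040-64022309, minus strand: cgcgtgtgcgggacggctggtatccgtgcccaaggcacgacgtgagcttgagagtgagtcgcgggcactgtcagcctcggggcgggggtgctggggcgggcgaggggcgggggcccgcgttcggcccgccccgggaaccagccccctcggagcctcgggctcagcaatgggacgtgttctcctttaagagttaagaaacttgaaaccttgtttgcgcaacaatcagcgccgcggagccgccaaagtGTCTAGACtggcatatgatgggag

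Counted on both strands, GTCT stood once in the windows of Id2, Bmp4 and Bmpr1a and at 2 places in those of Id3 and Smad6, and 85.2% of the 32851 promoter windows in the table hold it. The 2 matches of Smad6 lie side by side and form the palindrome GTCTAGAC, which begins at base 247 of its window and occurs in 0.183% of all windows. GGCGCC, its own reverse complement, stood once in Id2, at base 20, and once in Bmpr1a, at base 53, against 10.4% of all windows with a match. These are matches of letters and no measure of binding.

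Per kilobase of the longest transcript, Id1 and Id3 were the most abundant members and the ligands the least. Over all 23 libraries the mean level was 71.1 CPM per kilobase for Id3 and 69.7 for Id1. Id2 followed at 22.4, Bmpr1a at 16.1, Smad7 at 14.7 and Smad6 at 11.5 CPM per kilobase. Bmp2 came to 4.30 and Bmp4 to 3.60 CPM per kilobase. Neighbours in this order whose difference lay within the spread between mice were Id3 and Id1 (glucose group 69.5 ± 8.40 and 66.1 ± 9.67, SD, n = 11), Bmpr1a and Smad7 (16.8 ± 1.58 and 15.8 ± 2.56), and Bmp2 and Bmp4 (4.60 ± 0.885 and 3.93 ± 1.02).

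Of the ligands, Bmp2, which is made in villus cells, had 10.5 CPM in the lowest galactose mouse, 14 in the median and 20.4 in the highest, against 12.1, 16.4 and 22.7 CPM on glucose. Its log2 difference, galactose minus glucose, was -0.19 ± 0.11 (SE), and 3 of 12 galactose mice lay above the glucose median. Bmp4, a ligand of the stroma beneath the epithelium, ran from 3.77 through a median of 6.74 to 10.3 CPM on galactose and from 4.32 through 8.22 to 11.5 CPM on glucose. Its log2 difference was -0.25 ± 0.18. Both ligands overlapped almost fully between the diets. Bmp4 was the least deeply counted member, with 60 to 187 reads per library, and the most variable, with a coefficient of variation of 35.4% on galactose and 25.9% on glucose. The galactose mice split into 6 with 3.77 to 5.48 CPM of Bmp4 and 6 with 8.0 to 10.3 CPM, with no mouse between, while the glucose mice covered the range without such a gap.

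Bmpr1a, the type I receptor that carries BMP signals into the intestinal epithelium, lay between 82.4 and 110.5 CPM on galactose (median 92.3) and between 86.9 and 115.7 CPM on glucose (median 97.7). The log2 difference was -0.11 ± 0.05, and 2 of 12 galactose mice exceeded the glucose median. With a coefficient of variation of 8.07% and 9.42% it was among the steadiest of the set.

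Smad6, the inhibitory SMAD that acts mainly on BMP signals, had 23.9, 33 and 43.9 CPM in the lowest, median and highest galactose mouse and 24.6, 36.2 and 47.3 CPM on glucose. Its log2 difference was -0.10 ± 0.10, and it became -0.05 without glucose replicate 7 and -0.15 without galactose replicate 4. Smad7, which restrains both the BMP and the TGF-beta arm, had 47.4, 57.6 and 84.1 CPM on galactose and 49.6, 67.0 and 84.6 CPM on glucose. The log2 difference came to -0.21 ± 0.10. The groups shared nearly the whole range for both, although 11 of 12 galactose mice lay below the glucose median for Smad6 and 10 of 12 for Smad7.

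The Id genes leaned the other way. Id2, known for its part in lymphoid as well as epithelial cells, had 41.4 CPM in the lowest galactose mouse, 47.8 in the median and 57.9 in the highest, against 34.7, 38.9 and 47.3 CPM on glucose. All 12 galactose mice lay above the glucose median and 7 of them above every glucose mouse, while 8 of 11 glucose mice lay below every galactose mouse. The log2 difference of 0.27 ± 0.06 is 20.7% more on galactose, and it stayed between 0.24 and 0.30 when each library was left out in turn.

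For Id1 the values were 67.9, 85.6 and 98.2 CPM on galactose and 59.5, 73.0 and 95.1 CPM on glucose, which gives a log2 difference of 0.14 ± 0.07. Here 11 of 12 galactose mice lay above the glucose median, but only 1 above the glucose maximum. Id3 had 78.2, 93.4 and 112 CPM against 75.1, 91.3 and 106 CPM, a log2 difference of 0.06 ± 0.07, with 7 of 12 galactose mice above the glucose median. Left-out libraries moved it between 0.03 (galactose replicate 9 left out, with glucose replicate 1 also at 0.03 and galactose replicate 10 at 0.04) and 0.09. In order of diet difference, then, Id2 lay first, Id1 next with overlapping mice, and Id3 was close to 0.

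**Figure D1:**
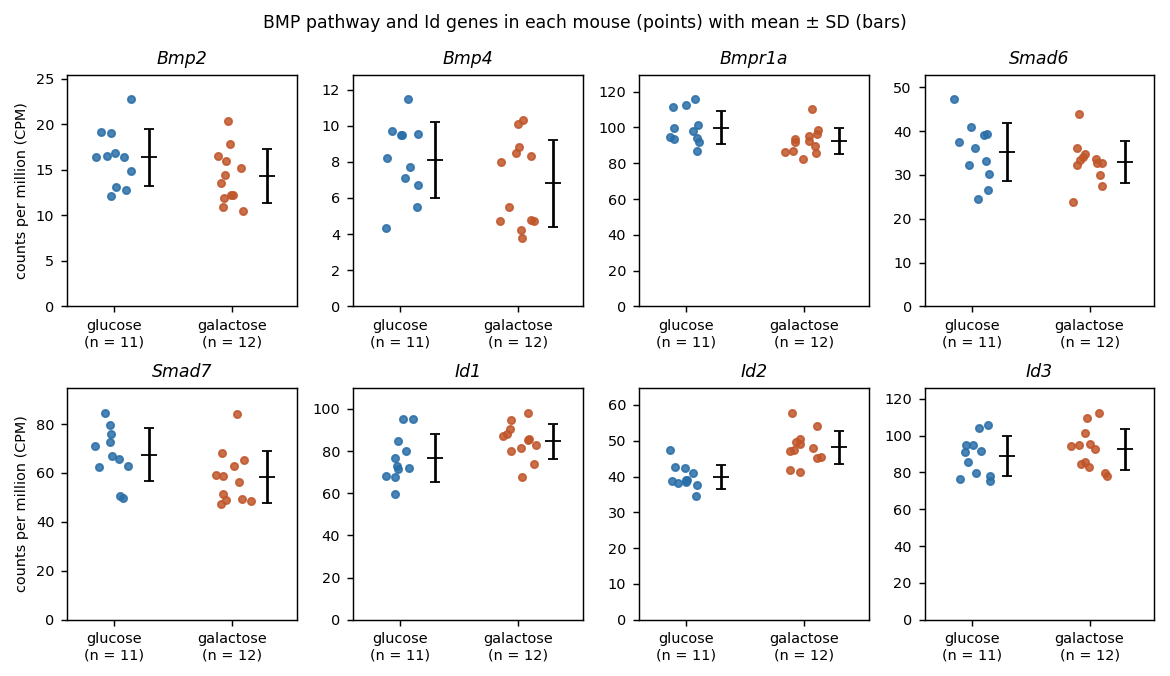
Level of each of the 8 genes in every mouse, in CPM on an axis from 0, for glucose (blue, n = 11) and galactose (orange, n = 12), with the mean and SD as a bar beside the points. The groups overlap in every panel, and Id2 is the panel with the least overlap: 7 of 12 galactose mice lie above all glucose mice.

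By edgeR's quasi-likelihood test 0 of the 8 members passed an adjusted p of 0.05, and so did 0% of the 13405 genes tested (1924 genes, or 14.4%, had an unadjusted p under 0.05, 8.63% being higher and 5.72% lower on galactose). DESeq2 called 1 member, Id2, beside 1.84% of the 7168 genes it gave an adjusted p. Limma-voom with quality weights called Id2 beside 1.25% of genes, and edgeR without galactose replicate 7 called Id2 beside 1.64%. Limma-voom without the weights called 0 members, beside 0% of the 13405 genes. Since the members were chosen on this comparison, nothing is read from these counts.

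Of 48 further BMP pathway genes, 30 were tested, 0 passed by edgeR, and 29 had a lower mean on galactose, with a median log2 difference of -0.16 against -0.00 over all genes tested, where 6773 of 13405 were lower. The count was also 29 of 30 under the other 2 scalings, but 19 of 30 with the length slope described below in the model. An unadjusted p under 0.05 was reached by 9, all of them lower, beside 5.72% of all genes lower at that level. DESeq2 called 2 of these genes, Twsg1 and Ski, beside 1.84% of the 7168 genes it gave an adjusted p. Limma-voom with quality weights called the same 2, beside 1.25% of genes, and limma-voom without the weights called 0. Both genes were lower on galactose.

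By role, all 8 tested ligands, Bmp2 and Bmp4 included, had a lower mean on galactose. Bmp8b had 5.88 ± 1.60 CPM on galactose and 8.81 ± 3.35 on glucose (SD, n = 12 and 11), a log2 difference of -0.58 ± 0.19 with an edgeR adjusted p of 0.185. It is a close copy of Bmp8a (-0.31 ± 0.17), so the split of reads between the pair is uncertain. Bmp3 differed by -0.26, Bmp7 by -0.20, Bmp5 by -0.16 and Bmp6 by -0.03.

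Of 7 tested receptor genes, 6 had a lower mean on galactose. The type II receptor Bmpr2 differed by -0.16, and the activin receptors Acvr1, Acvr2a, Acvrl1 and Acvr2b, some of which also bind BMPs, by -0.19, -0.16, -0.09 and 0.05. Rgmb, a co-receptor, differed by -0.13. None of these passed by edgeR.

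Among secreted antagonists 5 of 14 could be tested, and all 5 had a lower mean on galactose. Twsg1, an extracellular modulator of BMP ligands, had 29.4 ± 2.86 CPM on galactose and 34.7 ± 4.12 on glucose, a log2 difference of -0.24 ± 0.07 (edgeR adjusted p = 0.139). Nbl1 differed by -0.47, Fst by -0.45, Fstl3 by -0.42 and Fstl1 by -0.09. The antagonists Nog, Grem1 and Chrd were among the 9 at a mean under 1 CPM, so their levels could not be compared at this depth.

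Inside the cell, Smad1, Smad5 and Smad4 differed by -0.07, -0.07 and -0.06. Ski, a corepressor that binds SMADs, had 83.0 ± 6.93 CPM on galactose and 95.5 ± 8.19 on glucose, a log2 difference of -0.20 ± 0.05 (edgeR adjusted p = 0.138). Its relative Skil differed by -0.22, the pseudoreceptor Bambi by -0.19, the ubiquitin ligases Smurf2 and Smurf1 by -0.14 and -0.03, Tob1 by -0.12 and the phosphatase Ppm1a by -0.07. All 9 tested inhibitors, Smad6 and Smad7 included, thus had a lower mean on galactose. With the length slope described below in the model, 5 of 9 inhibitors were lower (median -0.01). By the same model 5 of 8 ligands, 4 of 7 receptor genes and 5 of 5 antagonists were lower. Among Smad1, Smad4, Smad5 and Smad9 it was 1 of 4. Among other targets, Id4 differed by -0.30 and Atoh8 by -0.19, opposite in sign to Id1 and Id2. Of the 9 tested targets, Id1, Id2 and Id3 included, 3 had a higher mean on galactose and 6 a lower one (median -0.13). With the length slope described below in the model, 6 were higher and 3 lower (median 0.04).

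Of 7 tested helix-loop-helix genes whose products Id proteins bind or oppose, 6 had a lower mean on galactose and none passed by edgeR. Tcf3, Tcf4 and Tcf12, which encode the E proteins, differed by -0.02, -0.04 and -0.12, and Atoh1, Neurod1 and Ascl2 by 0.02, -0.02 and -0.76, the last at a mean of 1.28 CPM (edgeR adjusted p = 0.344). In the TGF-beta arm, 7 of 9 genes had a lower mean on galactose, among them Tgfbr1 (-0.21 ± 0.08, edgeR adjusted p = 0.238), Tgfb3 (-0.33), Smad3 (-0.11), Tgfbr2 (-0.07), Tgfbr3 (-0.06) and Smad2 (-0.05). Tgfb1 differed by 0.04. With the length slope described below in the model, 3 of 7 helix-loop-helix genes and 3 of 9 TGF-beta genes were lower. The medians were then 0.03 and 0.01.

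**Figure D2:**
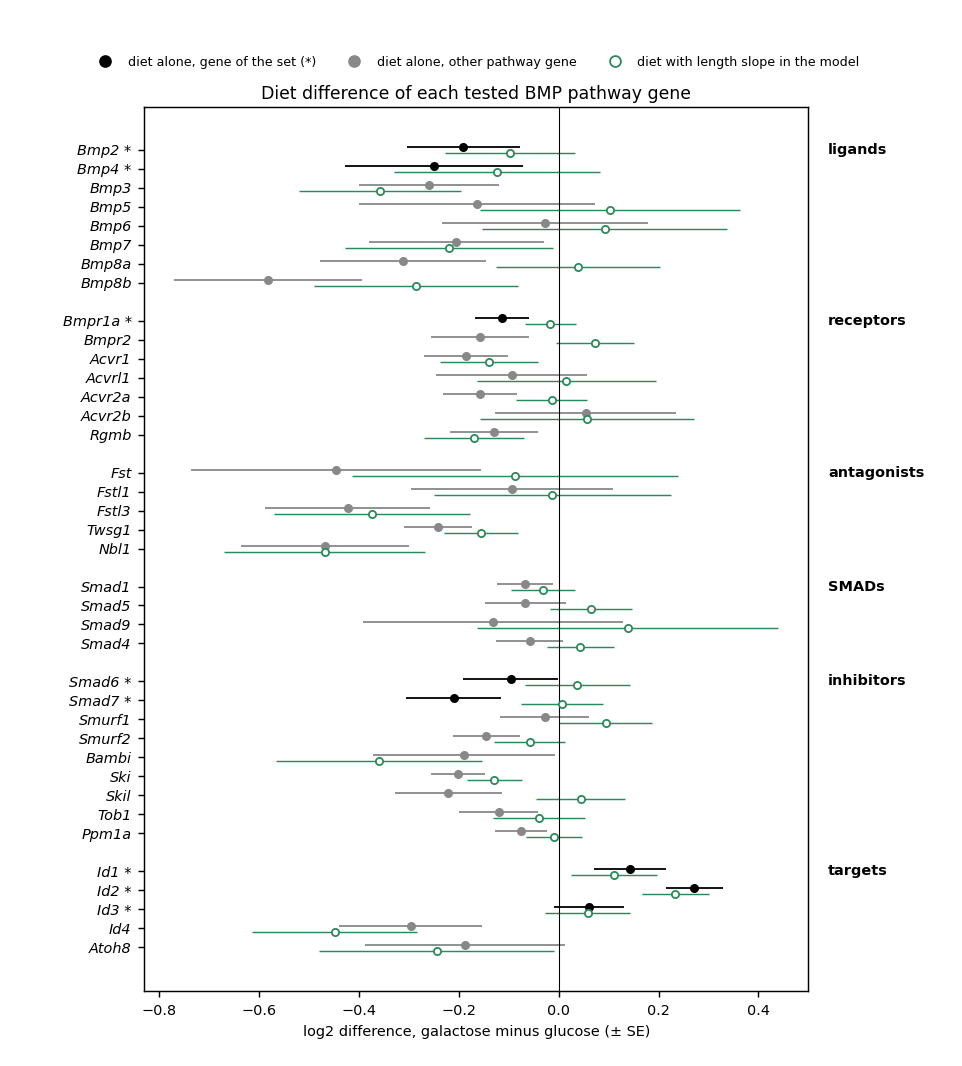
Log2 difference, galactose minus glucose, with its SE for each tested BMP pathway gene, grouped by role, for diet alone (filled) and with the length slope of each library in the model (open green). Filled points of Id1, Id2 and Id3 lie right of 0 and those of nearly all other genes left of it, and with the length slope 19 of the 30 non-member genes lie on the left.

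Libraries also differed in a way that tracks transcript length. The slope of log2 CPM on log2 length, relative to the mean library, averaged -0.0289 (SD 0.0553) in galactose mice and 0.0315 (SD 0.0450) in glucose mice, and the members range from 1160 bases for Id1 to 5956 for Bmpr1a. With that slope in the model the log2 difference was 0.23 ± 0.07 for Id2, 0.11 ± 0.09 for Id1 and 0.06 for Id3. It shrank to -0.10 for Bmp2, -0.12 for Bmp4 and -0.02 for Bmpr1a, and changed sign to 0.04 for Smad6 and 0.01 for Smad7. Of the 30 other pathway genes 19 were then lower and 11 higher, with a median of -0.03. What part the slope has in the diet differences was not tested, since it differs between the groups.

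Several cell type lists had means that differed in sign together between the diets, although 0 genes of any passed by edgeR. T cell genes had a higher mean on galactose for 20 of 21 tested (median log2 difference 0.45), with sums of 205 to 500 CPM (median 279) against 88.7 to 389 CPM (median 230), and none of the 22 listed was at 0 in all libraries. B and plasma cell genes had a higher mean for 5 of 5 tested (median 0.95), with sums of 52.0 to 242 CPM against 55.1 to 159 CPM. Within diets the correlation of Id2 with T cell genes had a median of 0.10 and a maximum of 0.39, and 0 of 21 passed, as did 0% of all genes. The Id2 median was 0.37 with endothelial genes (9 of 9 positive) and 0.25 with fibroblast genes (9 of 10 positive), and 0 of these passed. Fibroblast genes had a lower mean on galactose for 10 of 10 tested (median -0.29), with sums of 85.9 to 240 CPM against 102 to 256 CPM, in the same direction as Bmp4, and smooth muscle genes for 8 of 8 (median -0.27). Crypt base genes had a lower mean on galactose for 6 of 6 (median -0.31, and -0.39 with the length slope), with sums of 67.0 to 210 CPM against 93.9 to 266 CPM. Villus tip genes had a lower mean for 5 of 5 (median -0.20, and -0.02 with the length slope, when 3 of 5 were lower), with sums of 1311 to 2380 CPM against 1212 to 2818 CPM. The part of these cells in the diet differences of the 8 genes was not tested.

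Whether the members follow each other from mouse to mouse is independent of the diet contrast, and was tested after each diet's mean was taken off. Over the 28 pairs, 22 correlations were positive and the median Pearson r was 0.21. A pair passed where a permutation test with 100000 resamples, adjusted over all 13404 other genes with either gene as anchor, stayed under 0.05. By this rule 0 of 28 pairs passed, and 5 had an unadjusted p under 0.05 by Pearson and 6 by Spearman.

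None of the other 7 members followed Id2 closely. With Id1, r was 0.38 and Spearman's rho 0.47 (permutation p = 0.075 and 0.027, adjusted 0.852 and 0.859), and r was 0.38 without the 2 mice farthest from the Id2 median. It was 0.66 among galactose mice and 0.14 among glucose mice, a difference that was not tested. With Id3, r was 0.18, with Smad6 0.13, with Bmpr1a -0.00 and with Smad7 -0.07. The last 2 values pool opposite signs, since r was -0.51 on galactose and 0.52 on glucose for Smad7, and -0.42 and 0.45 for Bmpr1a, differences that were not tested. With the ligands Bmp4 and Bmp2, r was 0.37 and 0.33, and the Bmp4 value became 0.55 without galactose replicate 12 and 0.23 without the 2 mice farthest from the Id2 median. Adjusted p for these pairs lay at 0.85 or above by Pearson, and in the scan of all genes Id2 had 0 that passed (0%), with a smallest adjusted p of 0.763 and 824 genes at an unadjusted p under 0.05.

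The highest correlation was that of the 2 inhibitory SMADs. Smad6 and Smad7 had r = 0.68 and rho = 0.70 (permutation p = 0.0006 and 0.0005). Without the 2 mice farthest from the Smad7 median r was 0.70, and without the 2 farthest from the Smad6 median it was 0.58. Among genes ranked by Smad7 the adjusted p was 0.0074, but among those ranked by Smad6 it was 0.0783, so the pair did not pass. Left-out libraries moved r between 0.61 and 0.76. It was 0.47 within galactose and 0.87 within glucose mice, and 0.58 with the length slope taken off.

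Id3 and Smad6 came next, with r = 0.57 and rho = 0.60 (permutation p = 0.0054, adjusted 0.196). Their r was 0.59 without the 2 mice farthest from the Id3 median and 0.49 without the 2 farthest from the Smad6 median. It was 0.65 with the length slope taken off. Bmpr1a and Smad7 had r = 0.50, which went to 0.01 with the slope taken off. Bmp2 and Bmp4 had r = 0.48 (adjusted permutation p = 0.284), and Id1 and Bmpr1a had r = -0.48 (adjusted permutation p = 0.562).

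**Figure D3:**
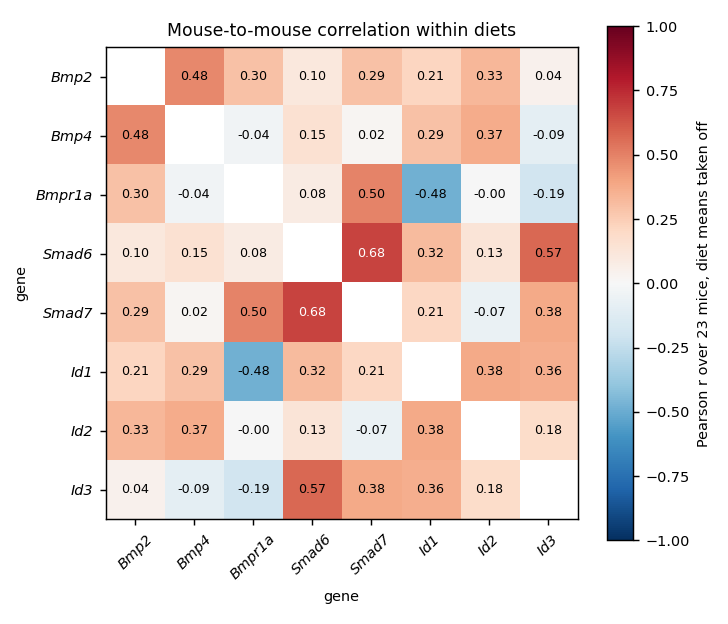
Pearson r for each pair of the 8 genes over 23 mice, on log2 CPM with each diet's mean taken off, from -1 (blue) to 1 (red). Smad6 with Smad7 (0.68) and Id3 with Smad6 (0.57) stand highest, and the Id2 row holds no value above 0.38.

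By the rule of the 5 highest r among genes with a mean of at least 10 CPM, Id2 was most like Raly (r = 0.71), Hagh (0.67), Cryzl1 (0.66), Akr1b7 (0.64) and Ssu72 (0.64), over 23 mice. All had an adjusted permutation p of 0.763. Id1 was most like Aldh4a1 (0.78), Rilp (0.76), Ehd1 (0.76) and Card19 (0.73), with adjusted permutation p from 0.067 to 0.0894. None of these 9 genes belongs to the BMP lists.

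Bmp4, Smad7 and Bmpr1a each had genes correlated with them past the threshold, and the marker lists in which those genes fell were read after the values had been seen. Genes of a list share their libraries and are not independent. Bmp4 passed with 354 genes (2.64% of 13404, 330 positive and 24 negative, and 2.51% by Spearman). It passed with 8 of 9 endothelial genes, 7 of 10 fibroblast genes, 4 of 8 smooth muscle genes, 2 of 7 macrophage genes (Csf1r at 0.83 and Adgre1 at 0.74) and 1 of 21 T cell genes (Cd4 at 0.66), all positive, and with 0 of 9 enterocyte and 0 of 5 villus tip genes. The median r was 0.83 for endothelium, 0.74 for fibroblasts, 0.66 for smooth muscle, 0.61 for macrophages, -0.19 for T cells and -0.06 for enterocytes.

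Single genes showed the same. With Kdr, a VEGF receptor of endothelium, r was 0.90 and rho 0.83, and r was 0.89 without the 2 mice farthest from the Bmp4 median. With Col1a2, a fibrillar collagen, r was 0.84 and rho 0.89, and with Pdgfra, a receptor of fibroblasts that signal to the epithelium, 0.82 and 0.84. Foxl1, which marks telocytes under the epithelium, had r = 0.68 and rho = 0.62 (adjusted permutation p = 0.0423 and 0.0853). For Kdr, Col1a2 and Pdgfra the permutation p was 1e-05, the smallest that 100000 resamples can give, and the adjusted p was 0.00291.

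Of the pathway, Bmp4 passed with 5 of 30 genes. These were the ligands Bmp6 (r = 0.90), Bmp7 (0.74) and Bmp5 (0.72), the endothelial receptor Acvrl1 (0.80) and Fstl1 (0.76). No member of the set was among them. Lgr5, a receptor of crypt base stem cells, was also called (r = 0.75, rho = 0.79), while the other 5 crypt base genes were not.

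The galactose mice lay in 2 separate ranges of Bmp4, so r is also given within each. Within the low 6 the median r was -0.13 for fibroblast and 0.10 for endothelial genes, and within the high 6 it was 0.18 and 0.09. Each range is narrow and holds 6 mice, which lowers r, so these values do not show that a relation is absent. Within the 11 glucose mice, which had no such gap, the medians were 0.75 and 0.82. With the length slope taken off, Bmp4 still passed with 8 of 9 endothelial and 8 of 10 fibroblast genes, beside 3.22% of all genes. Without galactose replicate 12 it passed with 7 of 9 and 6 of 10, beside 2.01%.

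Smad7 passed with 2402 genes (17.9% of 13404, and 17.2% by Spearman), 1208 positive and 1194 negative. It passed positively with 5 of 5 villus tip genes. For Klf4, a transcription factor of differentiated epithelium, r was 0.77 and rho 0.78, and for the nucleoside transporter Slc28a2 r was 0.76. Egfr had r = 0.75, and the adenosine pathway enzymes Ada and Nt5e had 0.58 and 0.56. It passed negatively with 4 of 6 crypt base genes: Smoc2 (-0.78), Ascl2 (-0.74), Olfm4 (-0.73) and Slc12a2 (-0.69). Axin2, a Wnt target, went the other way (0.69), and Lgr5 did not pass (-0.23). None of 10 fibroblast or 9 endothelial genes passed with Smad7.

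Of the 30 other pathway genes, 8 passed positively with Smad7 and 1 negatively, or 30% beside 17.9% of all genes. The 8 were Skil (r = 0.84, rho = 0.89), Bmp8a (0.80), Smurf1 (0.66), Bmp8b (0.65), Smad4 (0.61), Acvr2a (0.61), Bmpr2 (0.61) and Acvr1 (0.55). Id4 passed with r = -0.57. Skil and Smurf1, like Smad7, encode brakes on SMAD signalling. Of the 8 inhibitors tested against Smad7, 7 had a positive r and 3 passed with Smad7 as anchor, Smad6 being the third. Bambi went the other way (r = -0.53, adjusted permutation p = 0.0612).

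These Smad7 calls moved with the length slope, with which Smad7 had r = 0.74 within diets. With the slope taken off, 288 genes (2.15%) passed. Among them were 1 of 5 villus tip genes (Klf4, r = 0.70), 3 of 6 crypt base genes (Slc12a2 at -0.78, Smoc2 at -0.73 and Olfm4 at -0.71) and Skil (0.64). The villus tip median fell to 0.54 and the crypt base median was -0.68. Of the pathway genes, Bmpr2 then had r = 0.08, Acvr2a 0.26, Bmp8b 0.47, Acvr1 0.62 and Bmp8a 0.64. With scaling by library totals alone, 3 of 5 villus tip genes and 3 of 6 crypt base genes passed.

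Smad6 and Id3 leaned as Smad7 did, below the threshold. The median r with villus tip genes was 0.49 for Smad6 and 0.47 for Id3, and with crypt base genes -0.55 and -0.48, with 0 called for either (background 0%). With the slope taken off, Id3 passed with 105 genes (0.783%), among them Olfm4 (r = -0.71). Id2 had a median r of -0.07 with villus tip and 0.04 with crypt base genes, and Id1 had 0.20 and -0.13. Scaled by library totals alone, the medians with villus tip and crypt base genes were -0.25 and 0.36 for Id2, 0.28 and -0.25 for Id3, 0.44 and -0.40 for Smad6, and 0.01 and 0.00 for Id1. Whether these medians differ between members was not tested.

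Bmpr1a passed with 363 genes (2.71%, and 0.724% by Spearman). Among them were 3 of the 30 other pathway genes: the receptor partner Bmpr2 (r = 0.70), Smurf2 (0.68) and Skil (0.66). Of 9 enterocyte genes only 1 passed, the brush border enzyme Sis (0.74). That list had a median r of -0.11 with 4 of 9 positive, and Fabp2 and Fabp1 had -0.52 and -0.46. Bmpr1a had r = 0.66 with the length slope, and with the slope taken off 0 genes passed. Bmp2, Smad6, Id1 and Id3 had 0 genes each in the plain scan, and with the slope taken off Bmp2 had 3 (0.0224%).

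**Figure D4:**
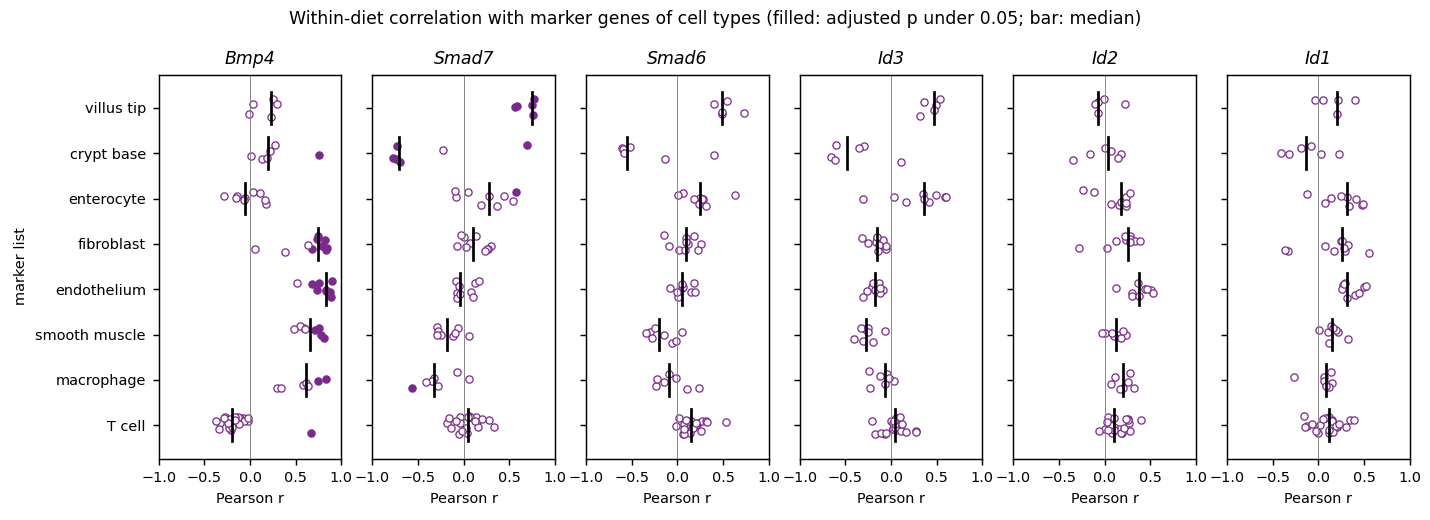
Pearson r over 23 mice, diet means taken off, between each of 6 genes (panels) and the tested markers of 8 cell types or positions (rows), with filled points for an adjusted permutation p under 0.05 and a bar for the list median. Filled points gather on the right for Bmp4 with fibroblast, endothelial and smooth muscle genes, with 2 of 7 for macrophages, and at both sides for Smad7 with villus tip and crypt base genes. Smad6, Id3, Id2 and Id1 have none.

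**Figure D5:**
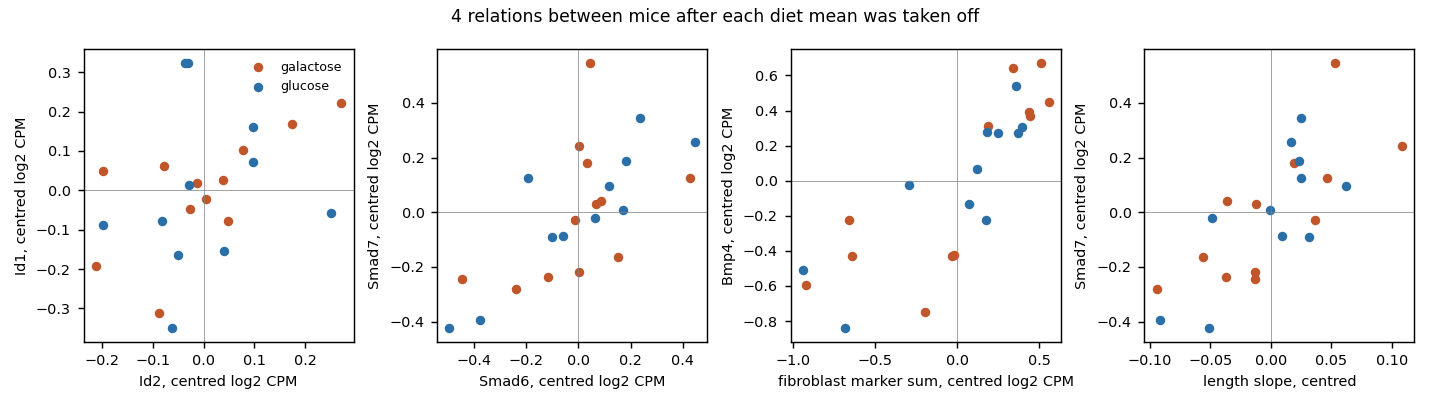
Each point is a mouse (orange galactose, blue glucose) with its diet mean taken off: Id1 against Id2, Smad7 against Smad6, Bmp4 against the log2 sum of fibroblast markers, and Smad7 against the length slope of the library. Id1 and Id2 are loosely related (r = 0.38) and Smad7 rises with Smad6 (0.68) and with the length slope (0.74).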

How the data were processed

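Total RNA of 23 mucosal scrapings (12 galactose, 11 glucose, each a separate mouse) was sequenced on the DNBSEQ platform, per the labels' protocols. The authors deposited raw read counts per gene for each mouse, and per the submitters' processing notes STAR and HTSeq were used on GRCm39. Versions, annotation and strand setting are not stated in any source used here, so antisense or overlapping reads may be included. The 5 rows that name no gene (13.5% of reads) were left out, and 52083 gene rows matched a symbol. No 2 libraries of a diet were copies.

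Counts were fitted with edgeR 4.0.16 (filterByExpr, TMM, quasi-likelihood test on diet, Benjamini-Hochberg). The SE of a log2 difference was taken from the test, as the absolute difference over the square root of its F value. It is given for members as a description. In simulated counts for 13405 genes the test recovered 43.3% of genes changed 1.25-fold and 77.6% of those changed 1.5-fold. Each gene was drawn on its own, without the length slope or the mix of cell types of real libraries. These shares therefore check the code and do not give the power of the real comparison. Correlations used log2 CPM (prior count 2) less each diet's mean, with the anchor gene permuted within diets 100000 times (two-sided), and were computed for 8 anchors. Transcript lengths are the longest per gene in GENCODE vM21, matched by identifier. Alternatives were other scalings, DESeq2 1.42.0, limma 3.58.1 (voom), other filters, a robust fit, the length slope, and each library left out. The scans for Bmp4 and Smad7 by marker list, and their alternatives, were added after seeing the data.

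The members, the lists and the rules for naming genes were chosen with earlier results of these data known. All tested pathway, partner and TGF-beta genes with a mean of at least 1 CPM could be named. Some genes these rules take are not reported here. The counting error of a value depends on its read count, at least 60 per library for the members, and the spread between mice adds to it.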

Additional observations from a re-analysis of the deposited data

Results flagged for a closer look

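Galactose replicate 12, labelled female, held 225 counts of 4 Y-linked genes, a signal outside the compared measurements, where the other 22 libraries held at most 1 each. Without it the log2 difference was 0.29 for Id2 and 0.16 for Id1, and 0 genes passed by edgeR.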

How the results depend on the processing

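Between the diets edgeR called 0 genes, DESeq2 132, limma-voom 0 and limma-voom with quality weights 167. Leaving out each library in turn from the edgeR fit gave 0 to 219, the last without galactose replicate 7. Members called were 1 (Id2) by DESeq2 and 1 by quality weights, and 0 to 1 with libraries left out. The members were chosen on this comparison, so nothing is read from these calls. Other BMP pathway genes called were 2 and 2 (Twsg1 and Ski), and 0 to 1 with libraries left out (Ski, without galactose replicate 7). With the length slope in the model Smad6 became 0.038 and Smad7 0.0068, reversed in sign, and no other member changed sign under any setting tried. The number of villus tip genes correlated with Smad7 was 5, and became 3 without scaling beyond library totals and 1 with the length slope taken off. The causes were not tested. Pairs called stayed at 0 in each of the 7 settings tried, and so did genes correlated with Id2. No paired analysis was possible because the numbers of the libraries only follow their deposit, and no label ties a mouse of 1 diet to a mouse of the other. Bmp4 had 60 to 187 reads per library and a coefficient of variation of 35.4% on galactose and 25.9% on glucose. Small differences in it lie within that spread between mice.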
